A study of Rattus norvegicus with 4 samples.

Results

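Gh1, Prl, Pomc, Tshb and Lhb, the genes of the main protein hormones of the anterior pituitary, were followed across the 4 capture areas of a spatial transcriptome of the rat trigeminal nerve. The members were the rows of the gene table that carried these 5 symbols, 5 of 32623 genes, and each symbol matched 1 row (Gh1 is ENSRNOG00000011207, Prl ENSRNOG00000017374, Pomc ENSRNOG00000012686, Tshb ENSRNOG00000016793 and Lhb ENSRNOG00000047040). The question was whether their UMIs (unique molecular identifiers, which count captured molecules once) gathered in few spots or lay over the spots in proportion to depth. A spot is a printed circle of capture oligonucleotides under a 10 µm section and can hold several cells.

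TN stands for the side of a wild type rat with trigeminal neuralgia after unilateral mechanical compression of the trigeminal root, with 3 animals on 3 areas (TN1, TN2 and TN3). HC is 1 area with tissue from 2 animals that the barcodes do not tell apart. The series design takes HC from the healthy side of compressed rats, whereas the methods call the controls sham operated, both in adult male Sprague–Dawley rats. The tissue under an area was a mixture of central root, sensory ganglion and peripheral nerve.

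The anterior pituitary makes each of these hormones in its own cell type. Somatotrophs make growth hormone (Gh1), lactotrophs prolactin (Prl), corticotrophs the precursor of adrenocorticotropin (Pomc), thyrotrophs the beta subunit of thyrotropin (Tshb) and gonadotrophs the beta subunit of luteinising hormone (Lhb). The beta subunits pair with a common alpha subunit, Cga, and the transcription factor Pou1f1 drives the growth hormone, prolactin and thyrotropin lineages. The gland lies close to the trigeminal ganglia at the base of the skull. Pomc is also made outside the pituitary.

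Prl and Tshb are shown here by the bases before their starts, because both are textbook targets of Pou1f1 and their spots turn out to differ between areas. Sequences are from RefSeq on GRCr8, 250 bases up to the listed start, and capitals mark ATGNAT, a core of the POU factor site, searched on both strands. Prl lies at chr17:38298218-38298467 on the minus strand, with 1 match that began 24 bases before the start, and Tshb at chr2:192918055-192918304 on the minus strand, with matches that began 162 and 78 bases before it.
Prl: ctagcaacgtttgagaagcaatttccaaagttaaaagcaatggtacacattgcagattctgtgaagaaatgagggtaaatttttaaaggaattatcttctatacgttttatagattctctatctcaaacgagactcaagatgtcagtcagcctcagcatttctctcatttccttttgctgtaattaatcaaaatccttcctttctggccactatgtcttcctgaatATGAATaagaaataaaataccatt
Tshb: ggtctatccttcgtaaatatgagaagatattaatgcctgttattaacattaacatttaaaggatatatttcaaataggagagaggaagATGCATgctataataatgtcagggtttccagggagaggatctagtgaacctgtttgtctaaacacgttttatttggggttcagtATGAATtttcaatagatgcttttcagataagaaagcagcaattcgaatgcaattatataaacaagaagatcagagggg
The listed promoters of Pomc and Lhb held no such match. The same motif was present in 25.5% of 33469 rat promoters of this length, so a match describes the letters only. Of the 5 members, 4 had an entry in the RefSeq table.

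The areas held 1256 to 2013 spots, 6773 in all, and 23546025 to 41335930 UMIs, with medians of 9487 to 30808 UMIs per spot. Depth was lowest in TN1 and the median spot was deepest in TN2. All 7 sensory neuron markers (Calca, Tac1, Prph, Avil, Scn10a, Isl1 and Nefh) had UMIs in every area, with a summed level of 4149 to 10298 CPM (counts per 1e6 UMIs). Spots of different areas can carry the same barcode sequence, and 346 to 979 sequences were shared by each pair of areas.

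Gh1, growth hormone, was detected in all areas at very different levels. Across TN1, TN2, TN3 and HC it had 363, 9114, 3221 and 4888 UMIs, which is 15.4, 235, 99.9 and 118 CPM. The 95% Poisson intervals were 13.9 to 17.1, 230 to 240, 96.5 to 103 and 115 to 122 CPM, so no neighbours in the order TN1, TN3, HC, TN2 overlapped. These intervals cover counting error only. TN2 stood 15.2 times above TN1, and HC lay inside the range of the TN areas. In such sums, fewer hormone-making cells and less RNA per cell cannot be told apart.

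Prl, prolactin, followed the same order. It had 62, 1360, 148 and 750 UMIs in TN1, TN2, TN3 and HC, or 2.63, 35.1, 4.59 and 18.1 CPM, a range of 13.3-fold. HC was 3.95 times above TN3 for Prl but 1.18 times for Gh1. Per 100 Gh1 UMIs there were 17.1 Prl UMIs in TN1 (95% exact interval 12.8 to 22.4), 14.9 in TN2 (14.1 to 15.8), 15.3 in HC (14.2 to 16.6) and 4.59 in TN3 (3.87 to 5.42). TN3 therefore stood apart from the other areas in how much Prl came with its Gh1.

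Pomc, the precursor of adrenocorticotropin, varied less between areas. Its UMIs numbered 276, 1645, 441 and 657 across TN1, TN2, TN3 and HC, or 11.7, 42.4, 13.7 and 15.9 CPM. TN2 was high and the other areas were close together, with overlapping intervals between TN1 (10.4 to 13.2) and TN3 (12.4 to 15.02) and between TN3 and HC (14.7 to 17.2). Per 100 Gh1 UMIs, there were 76.0 Pomc UMIs in TN1 but 18.0, 13.7 and 13.4 in TN2, TN3 and HC. TN1, where Gh1 was scarce, kept most of the Pomc level of TN3.

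Tshb and Lhb were rare. Tshb had 16, 84, 23 and 134 UMIs in TN1, TN2, TN3 and HC (0.680, 2.17, 0.713 and 3.24 CPM), and was the member whose highest area was HC. Lhb had 13, 90, 26 and 47 UMIs in the same order (0.552, 2.32, 0.806 and 1.14 CPM), with TN2 highest. For both, TN1 and TN3 had overlapping intervals.

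**Figure D1:**
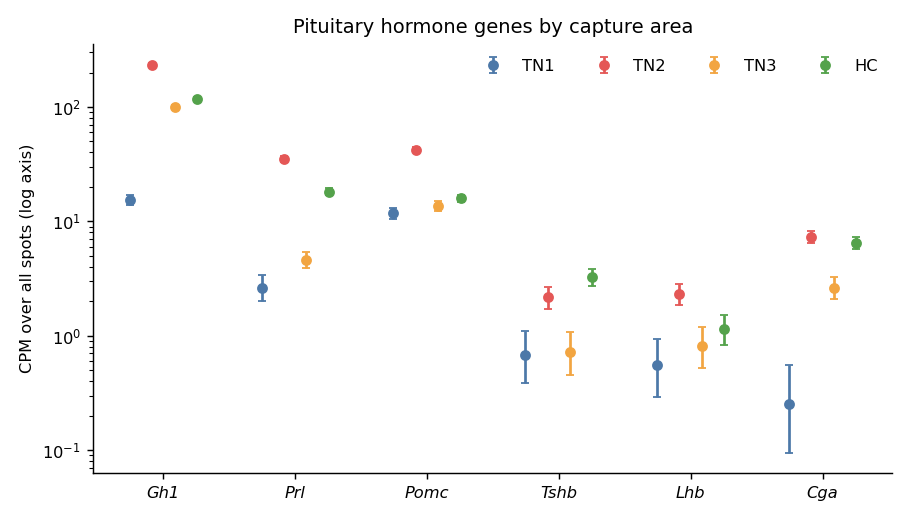
CPM over all spots (log axis) of the 5 members and the alpha subunit Cga in each capture area, with 95% Poisson intervals for counting error. TN1 is the lowest area for all 6 genes, TN2 is highest for Gh1, Prl, Pomc, Lhb and Cga, and HC is highest for Tshb.

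No member passed the test of TN against HC. UMIs were summed per area and tested by edgeR's quasi-likelihood test with Benjamini-Hochberg adjustment over 14902 genes. 0 of the 5 members were called, with 0 of them at an unadjusted p under 0.05 and 0 called by DESeq2, beside 0 genes in all (0%), with 1271 genes (8.53%) at an unadjusted p under 0.05 and 144 genes (0.966%) called by DESeq2 on the same sums. Gh1 averaged 117 ± 111 CPM (SD, n = 3) in TN and 118 in HC, with a log2 fold change (TN minus HC) of -0.11 ± 1.27 (SE, adjusted p = 0.979). For Prl it was -0.46 ± 1.39 (adjusted p = 0.914) and for Pomc 0.42 ± 0.79 (adjusted p = 0.852). Tshb was furthest from 0 at -1.52 ± 0.75, with an unadjusted p of 0.0959 and an adjusted p of 0.564 in this edgeR test, and Lhb had 0.03 ± 0.89 (adjusted p = 0.992). The spread among TN areas was as large as the difference or larger for every member but Tshb. HC is a single area without a spread of its own and is assumed to vary like TN, and without TN1 the same fit called 2171 genes but still no member. Without TN2, Prl (-2.37) and Tshb (-2.26) had unadjusted p-values of 0.00647 and 0.0244 in that edgeR fit, with adjusted p = 0.995 for both.

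Gh1 UMIs reached most spots of 3 areas. At least 1 Gh1 UMI was found in 206 of 1587 spots in TN1 (13.0%), 1054 of 1256 in TN2 (83.9%), 1167 of 1917 in TN3 (60.9%) and 1419 of 2013 in HC (70.5%). Had the same UMIs been spread in proportion to the total UMIs of each spot, 18.7%, 94.9%, 68.3% and 77.3% of spots would have held one. The observed number of spots was thus 0.696, 0.884, 0.892 and 0.912 of that under such a spread. When each spot was thinned to 2000 UMIs, 3.00%, 26.8%, 17.9% and 24.9% of spots kept Gh1, in the same order of areas as before.

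The other members reached fewer spots than a spread by depth would give in TN2 and came close to it in TN3. Where few UMIs lie over many spots, as in TN3, observed and depth-given numbers are close for most spreads. That closeness therefore does not show a spread by depth. Prl was found in 3.21%, 38.6%, 6.83% and 23.4% of spots of TN1, TN2, TN3 and HC, where 3.76%, 59.9%, 7.28% and 28.2% would follow from depth. Pomc was found in 13.4%, 52.4%, 19.0% and 23.9%, where 14.8%, 65.6%, 19.4% and 25.5% would. Pomc in TN3 had the largest share of its depth-given spots of these values, 0.980. Tshb was found in 0.882%, 5.18%, 1.15% and 4.42% of spots, and in HC that was 0.702 of the number given by depth.

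**Figure D2:**
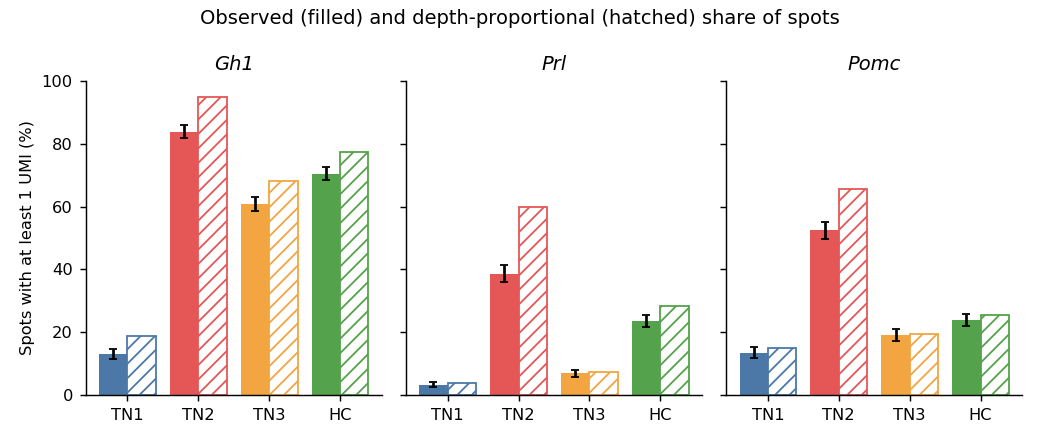
Percent of spots with at least 1 UMI of Gh1, Prl and Pomc in each area (filled bars, 95% exact binomial intervals for counting error) beside the percent that a spread in proportion to spot depth would give (hatched bars). All filled bars are below their hatched bars, by most for Prl in TN2 (38.6% against 59.9%) and by least for Pomc in TN3 (19.0% against 19.4%).

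Gh1 was at the same time among the most unevenly spread genes of every area. Its coefficient of variation over spots, after taking off counting noise and spot depth, was 5.98, 2.42, 5.06 and 1.42 across TN1, TN2, TN3 and HC, whereas the median gene with at least 100 UMIs had 0.460, 0.423, 0.364 and 0.345. That placed Gh1 at the 99.96th, 99.4th, 99.9th and 98.6th percentile of these genes. In TN1 and TN3 a single spot made the value. Without the richest spot of each area the coefficient was 1.57, 2.11, 1.04 and 1.35, which left TN2 as the most uneven area. Local genes reached similar values in some areas. Without its own richest spot Calca had 1.52, 1.47, 1.64 and 0.827, above Gh1 in TN3 alone. The bone gene Ibsp had 2.58 (from 73 UMIs with all spots), 1.29, 0.677 and 1.45, above Gh1 in TN1 and HC but not in TN2 and TN3. Unevenness of this size was thus not particular to Gh1. In TN2 Gh1 stood above both Calca and Ibsp. However, Prl (2.22), Cga (2.21) and Tshb (2.29, from 84 UMIs with all spots) were above Gh1 there, each without its own richest spot. The 1% of spots richest in Gh1 held 38.3% of its UMIs in TN1, and 23.2%, 23.4% and 12.8% in TN2, TN3 and HC. The remaining 99% still had 9.60, 182, 77.6 and 104 CPM, so the order of the areas did not rest on the richest spots.

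Prl was also uneven, and in HC by a single spot. Its coefficient of variation was 2.32 in TN2, 1.51 in TN3 (the 97.6th percentile) and 3.35 in HC, and without the richest spot 2.22, 1.12 and 1.33. TN1 held too few Prl UMIs for a stable value. Pomc was uneven in TN2 (2.11, the 99.03rd percentile) and less so in TN1 (1.11), HC (1.25) and TN3 (0.558, the 70.8th percentile). Tshb had 3.92 in HC and still 3.49 without its richest spot, the most uneven member there by that measure.

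**Figure D3:**
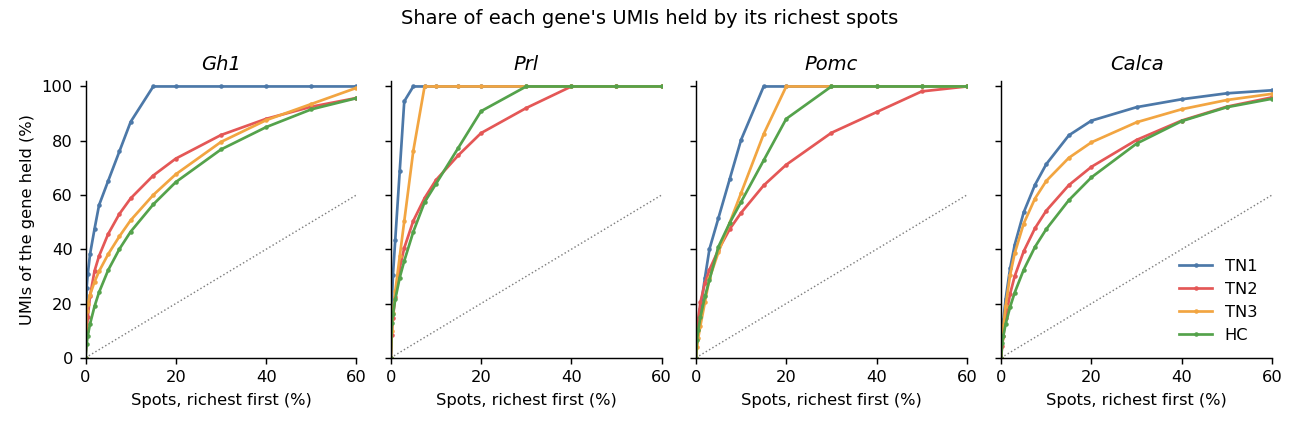
Percent of the UMIs of Gh1, Prl, Pomc and the sensory neuron peptide gene Calca (y axis) held by the spots richest in that gene (x axis, percent of spots), by area, with the dotted line for an equal number in every spot. The 5% richest spots held 65.3% of Gh1 in TN1 and 45.6%, 38.2% and 32.3% in TN2, TN3 and HC. For Calca they held 53.8%, 39.3%, 49.5% and 32.5% in TN1, TN2, TN3 and HC, more than for Gh1 in TN3 and close to it in HC. Curves of genes with few UMIs rise early because few spots hold any.

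Single spots showed what the hormones gathered with. In TN2 the spot richest in Gh1 held 398 Gh1 UMIs of 17055 in all, together with 35 Prl, 32 Pomc, 6 Tshb, 1 Lhb and 14 Cga UMIs. The next spots held 244 and 215 Gh1 UMIs with 25 and 37 Prl UMIs. In TN2 the hormones thus had rich spots in common. The 13 spots of TN2 richest in Gh1 had 24.8 times the Prl CPM of its other spots, 16.8 times the Pomc, 32.7 times the Tshb, 13.7 times the Lhb and 32.9 times the Cga.

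TN3, TN1 and HC had spots rich in 1 hormone with little of the others. The richest spot of TN3 held 459 Gh1 UMIs of 5816 in all, the highest number in any spot, with 2 Prl, 1 Pomc and no Tshb, Lhb or Cga UMIs. In TN1 1 spot held 76 Gh1 UMIs with none of the other 4 members or Cga, and the next held 6. The richest of HC held 70, 66 and 50 Gh1 UMIs with 3, 1 and 3 Prl UMIs. Prl had such a spot in HC, with 68 Prl and 9 Gh1 UMIs, where the next richest held 7. The HC spots richest in Pomc were more mixed. The first held 14 Pomc, 14 Gh1, 2 Prl and 1 Cga UMIs, and the next 11 Pomc, 5 Gh1 and 3 Prl. In HC the 21 spots richest in Gh1 had 5.64 times the Prl CPM of the rest, 2.57 times the Pomc and 1.14 times the Tshb, the last from 1 UMI.

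Tshb gathered with the alpha subunit in HC. The 3 HC spots richest in Tshb held 9, 8 and 6 Tshb UMIs and 11, 9 and 11 Cga UMIs, but 5, 3 and 5 Gh1 UMIs, and were also the 3 richest in Cga. Both subunits were found in 30 spots of HC and in 29 of TN2, where 11.6 and 11.8 would be expected if each kept its number of spots and these were placed by depth alone. Lhb and Cga shared 29 spots in TN2 against 14.2 expected in the same way, and 3 spots in HC against 5.80. TN3 had 1 spot with 21 Cga UMIs, 1 Tshb and no Lhb UMI. TN1 had 1 spot with 9 Pomc and 4 Prl UMIs and no Gh1.

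**Figure D4:**
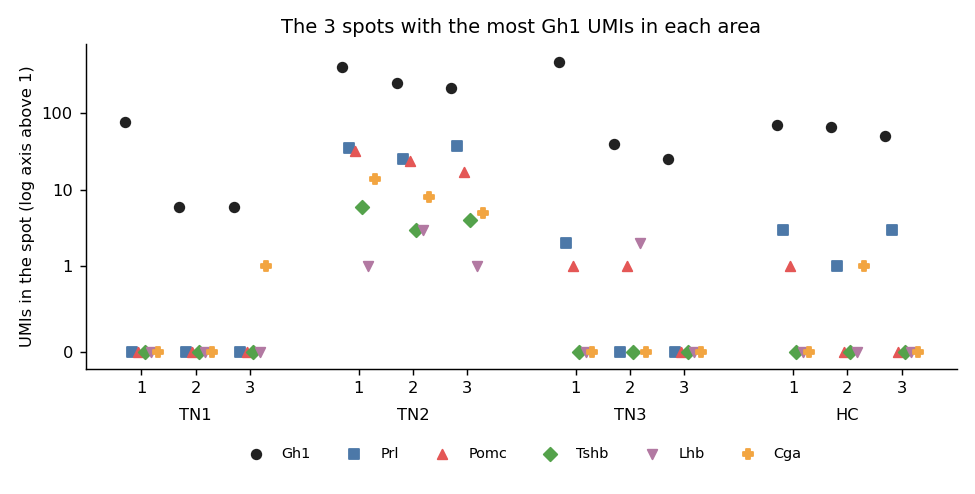
UMIs of the 5 members and Cga (y axis, logarithmic above 1) in the 3 spots with the most Gh1 UMIs in each area (x axis, rank within the area). The TN2 spots hold all 6 genes, with 17 to 32 Pomc and 25 to 37 Prl UMIs, whereas those of TN1, TN3 and HC hold at most 3 UMIs of any gene but Gh1.

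Over all spots, correlations between members also differed between areas. The Pearson correlation of Gh1 with Prl (log of counts per 10000) was 0.66 in TN2, 0.42 in HC, 0.16 in TN3 and 0.02 in TN1, in the order of the Prl UMIs counted, whose part in these values was not tested. The number of spots with both Gh1 and Prl was set against that expected from depth and the spots of each gene. It was 1.07 times the expected number in TN2 and in HC, 1.01 times in TN3 and 0.691 times in TN1. Gh1 was in 83.9% of TN2 spots and 70.5% of HC spots, so this count had little room to rise and cannot compare them. Among rarer pairs, Prl with Tshb stood at 1.66 times in TN2 and 0.675 in HC, and Prl with Cga at 1.62 and 0.862. Tshb with Cga was alike in both, at 2.45 and 2.59. Gh1 with Pomc had correlations of 0.55, 0.23, 0.08 and 0.03 in TN2, HC, TN3 and TN1. Spots of an area share a library and their tissue, so these values are given without a test. By the mean correlation within the 4 areas, among 11794 genes found in at least 1% of spots of every area, the genes most like Gh1 were LOC689064 (0.38), LOC100134871 (0.38), the 2 rows named Hba-a2, an alpha globin (0.38 and 0.37, which may share reads) and Prl (0.32). Hbb (0.30) and Hba-a3 (0.29), also hemoglobin genes, came next. LOC100134871 was, with Hba-a2 and Hba-a3, among the leading genes of the blood and bone cluster described below. Those most like Prl were Gh1 (0.32), Pomc (0.21), LOC689064, LOC100134871 and Hba-a2, and those most like Pomc were Gh1 (0.22), Prl (0.21), Dlk1, S100a9 and Col1a1 (the last 3 at 0.12, 0.10 and 0.10). The median gene had a mean correlation of -0.01 with Gh1. Tshb and Lhb were in too few spots for this comparison.

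Outside their richest spots, Gh1 UMIs rose less than depth, as did those of Actb. With the 1% of spots richest in Gh1 left out, the shallowest 25% of HC spots (median 5896 UMIs) held 2.16 Gh1 UMIs per spot and the deepest 25% (median 41860) held 1.93. Depth differed by 7.10-fold between these groups of spots and Gh1 by 0.897-fold. For every other gene here the groups were made without the 1% of spots richest in that gene. In HC Calca differed by 15.97-fold at 6.93 times the depth, and Actb, a widely expressed actin, by 2.21-fold at 7.04 times. In the TN areas the deepest 25% held 3.00 (TN1), 3.68 (TN2) and 3.00 (TN3) times the Gh1 UMIs per spot of the shallowest, at 6.38, 5.87 and 9.32 times its depth. Actb differed there by 2.91-fold, 1.68-fold and 5.66-fold, so Gh1 rose less than Actb in HC and TN3 but not in TN1 and TN2. Prl in HC differed by 0.838-fold. Pomc rose more with depth, by 8.93-fold in TN1 and by 4.09-fold, 6.01-fold and 2.45-fold in TN2, TN3 and HC. Shallow and deep spots also came from different tissue, and its part in these values was not tested.

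The spots were then grouped into regions without use of the pituitary genes, from 10 clusters named by marker lists. Clusters of the same name were joined, and 1 cluster stayed unnamed, called unnamed cluster 3, which was found in TN2 and TN3 and was led by Gpr83, Thbs2 and Thbs4. None of the listed sensory neuron markers was among the top 10 genes of either ganglion cluster, whose leading genes were Necab1, S100g and Nefl in one, mostly of HC, and Gal, Csrp3 and Vip in the other, mostly of TN.

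In CPM, Gh1 was lowest in the ganglion region in HC, TN1 and TN3 and highest in the blood and bone region, whose cluster was led by S100a8, S100a9 and hemoglobin genes. In HC it was 531 CPM in blood and bone, 185 in central myelin, 171 in peripheral myelin and 48.6 in the ganglion. In TN1 blood and bone had 87.8 CPM and the ganglion 7.85. In TN3 blood and bone had 809 CPM and the ganglion 55.7, but without the spot of 459 UMIs blood and bone had 244. Spots of blood and bone were shallow, with a median of 6340 UMIs, so the count per spot is also given. HC held 4.26 Gh1 UMIs per spot in blood and bone, 2.11 in central myelin and 1.58 in the ganglion, TN1 0.800 in blood and bone and 0.291 in the ganglion, and TN3 without its richest spot 1.36 in blood and bone and 1.49 in the ganglion. The higher level in blood and bone thus stood per spot in HC and TN1, and in TN3 only in CPM. The ganglion was the lowest region per spot in HC alone, since TN1 had 0.0929 Gh1 UMIs per spot in peripheral myelin and TN3 0.868 in central myelin.

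TN2 differed in the region with its highest Gh1 level. It had 10 spots of blood and bone, too few to give a level, and its Gh1 was highest in unnamed cluster 3, at 494 CPM and 15.8 UMIs per spot. The astrocyte region of TN2 had 243 CPM, its connective tissue 191, its central myelin 156, its ganglion 126 and its central neuron region 68.3. TN3 had 93.2 CPM and 1.97 UMIs per spot in that cluster, near its peripheral myelin (93.6 CPM) and connective tissue (84.0 CPM), above its ganglion and below its central myelin (178 CPM) and blood and bone. Of the 13 TN2 spots richest in Gh1, 11 were in unnamed cluster 3, which made up 26.2% of its spots. TN3 was alike in this, with 11 of its 20 richest spots in that cluster, which made up 25.9% of its spots. Only 2 of the 20 were in blood and bone, 7.56% of TN3 spots. Of the 21 in HC, 15 were in blood and bone, which made up 26.0% of its spots. In TN1 6 of 16 were in blood and bone, 4.10% of its spots. The summed connective tissue markers were 2.28 times higher in the richest TN2 spots than in the rest of that area. The summed blood and bone markers were 3.64 times higher in the richest Gh1 spots of TN1 and 1.75, 2.07 and 3.39 times in those of TN2, TN3 and HC. Other lists rose there too, by 2.86 times for central myelin, 2.27 for macrophage and 2.23 for astrocyte in HC and by 1.74 for peripheral myelin in TN2. The next highest list was central neuron in TN1 (1.63 times) and macrophage in TN3 (1.25). Ahsp, a blood and bone marker, had no UMI in the richest TN2 spots and 0.992 times the level in those of TN3. The part of these markers in the hormone level was not tested.

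Prl and Pomc took their highest levels in the same regions in TN2, TN3 and HC. In HC Prl had 91.4 CPM in blood and bone and 6.43 in the ganglion. In TN2 it had 75.1 in unnamed cluster 3 and 19.9 in the ganglion. Blood and bone of TN3 had 28.4 CPM, from 23 UMIs, but no Prl when clusters were made from log-normalised counts. Pomc had 46.4 CPM in blood and bone and 10.7 in the ganglion of HC, and 83.3 in unnamed cluster 3 and 27.9 in the ganglion of TN2. In TN1 and TN3 its regions lay closer together, from 9.53 to 16.9 and from 11.5 to 21.0 CPM. Tshb in HC had 15.7 CPM in blood and bone, from 66 UMIs, and 1.56 in the ganglion. The fold between the highest and the lowest region of an area was 10.97 ± 2.98 for Gh1 and 11.8 ± 2.68 for Prl (SD over the 4 areas).

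The number of Prl UMIs for each 100 Gh1 UMIs, with all spots included, had overlapping intervals in all regions of TN2 and of TN3. In TN1 and HC its intervals did not all overlap. In TN2 it was 15.2 (95% exact interval 14.1 to 16.4) in unnamed cluster 3 and 15.8 (14.1 to 17.8) in the ganglion, although Gh1 itself differed by several fold between them. In HC it was 17.2 (15.4 to 19.2) in blood and bone, 15.7 (13.2 to 18.5) in central myelin and 13.2 (11.3 to 15.3) in the ganglion. Peripheral myelin of HC had 5.80 (2.45 to 11.7, from 8 Prl UMIs). The intervals of the ganglion and of peripheral myelin lay below that of blood and bone. However, 1 spot of blood and bone held 68 of its 384 Prl UMIs with 9 Gh1 UMIs, so it raised that value. The comparison within HC was not made without this spot. TN3 had 3.51 (2.21 to 5.32) in blood and bone, 3.63 (2.26 to 5.55) in the ganglion and 5.62 (4.20 to 7.37) in unnamed cluster 3. The value of blood and bone came from 23 Prl and 655 Gh1 UMIs. A single spot held 459 of these Gh1 UMIs with 2 Prl, so it lowered that value, and the overlap was not tested without it. In TN1, with 6 to 25 Prl UMIs a region, the number was 6.72 (3.01 to 13.1) in the central neuron region and 54.3 (32.0 to 90.3) in central myelin. These do not overlap, but 1 spot without Prl gave 76 of the 134 Gh1 UMIs of the central neuron region. Central myelin had 5 of its 25 Prl UMIs in 1 spot. The comparison was not made without these spots. The ganglion of TN1, at 16.5 (8.86 to 28.6), also lay below central myelin.

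Pomc relative to Gh1 was higher in the ganglion than in blood and bone in HC, TN1 and TN3. For each 100 Gh1 UMIs there were 22.1 Pomc UMIs in the ganglion of HC (19.6 to 24.9) and 8.74 in its blood and bone (7.51 to 10.1), and in TN1 154 in the ganglion (117 to 203) and 19.2 in blood and bone (8.71 to 38.3). TN3 had 22.6 in the ganglion (18.6 to 27.3) and 2.60 in blood and bone, the latter with its spot of 459 Gh1 UMIs included. In TN2 the ganglion had 22.2 (20.1 to 24.5) and unnamed cluster 3 16.9 (15.7 to 18.1). Relative to Gh1, Pomc was thus highest in the ganglion among these regions in HC and TN1, and above unnamed cluster 3 in TN2. The ganglion was not the highest of all regions in TN2 or TN3. The central neuron region of TN2 had 23.3 (16.7 to 32.0) and the astrocyte region of TN3 25.2 (17.3 to 35.8), with intervals that overlapped that of the ganglion. These intervals cover counting error only and no test was made between regions.

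**Figure D5:**
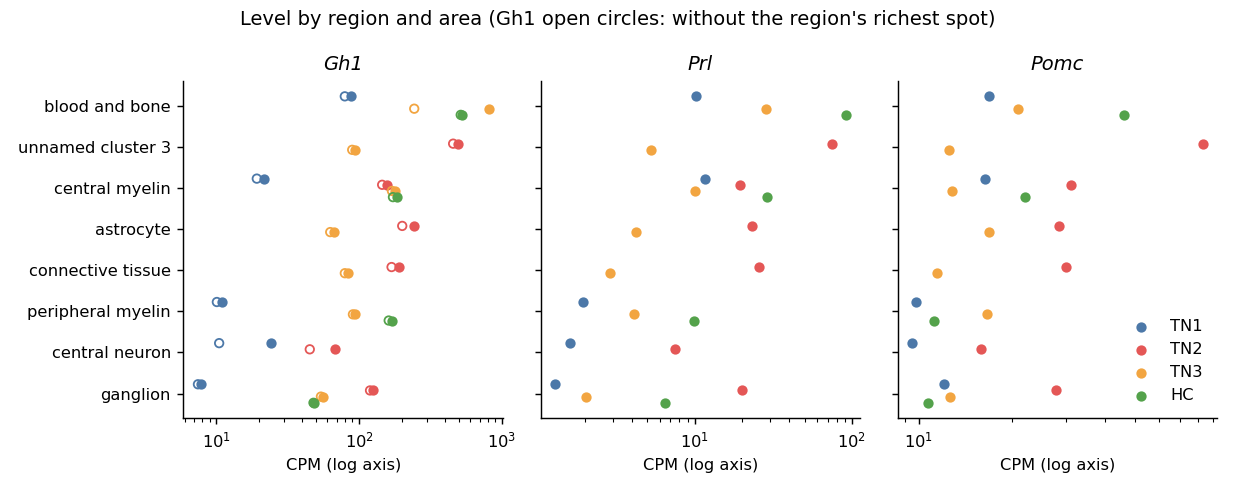
CPM (log axis) of Gh1, Prl and Pomc by region, 1 point per area with at least 20 spots of the region, with open circles for Gh1 without the richest spot of that region. HC, TN1 and TN3 have their highest Gh1 in blood and bone and TN2 in unnamed cluster 3. The TN3 point of blood and bone moves from 809 to 244 CPM without 1 spot.

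Of the other pituitary genes, Cga, Fshb and Pou1f1 shared with Gh1 their lowest area, TN1, and their highest, TN2, Fshb and Pou1f1 from few UMIs. Many others had few or no UMIs, too few to order the areas. The other hormone subunits had the same lowest area, with 6, 283, 85 and 267 for Cga in TN1, TN2, TN3 and HC and 2, 22, 3 and 5 for Fshb, the beta subunit of follicle stimulating hormone. Of 12 pituitary transcription factors, 5 to 7 (summed level 4.34 to 4.87 CPM) had a UMI in an area. Most of that sum came from Gata2, with 77, 121, 97 and 90 UMIs in TN1, TN2, TN3 and HC, and Tbx19, with 28, 36, 34 and 33. Pou1f1 had 0, 12, 3 and 4 UMIs, Pitx1, which acts across pituitary cell types, 1, 10, 0 and 10, and Lhx3, Nr5a1 and Pax7 had 0 in every area. Pou1f1 UMIs were thus most numerous in TN2, the area with the most Gh1. Ghrhr, the receptor for growth hormone releasing hormone on somatotrophs, had 0, 3, 0 and 2 UMIs, and Gnrhr, the receptor on gonadotrophs, 2, 3, 2 and 9. Among 9 receptors for hypothalamic factors the largest count was that of Drd2, the dopamine receptor, at 192 to 356 UMIs. Drd2 had 7.72 CPM in HC and 5.96 to 10.2 in TN, without the spread of the hormones. Avp, vasopressin of the posterior lobe, had 61, 74, 38 and 25 UMIs, with at most 2 in a spot, and Oxt, oxytocin, 0 to 3.

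The 22 other prolactin family genes, most of them placental, were at 0 but for 1 Prl8a5 UMI in TN1 and 1 in HC. The 9 processing and granule genes that were found, which neurons also use, summed to 1326 to 2393 CPM, with the lowest value in TN3 and the highest in HC. Pcsk1, which cleaves the Pomc product, had 25.6 CPM in the richest Gh1 spots of TN2 and 35.8 in the rest. Of 9 receptors for the hormones, 8 were found and 4 to 6 had a UMI in an area. Ghr, the growth hormone receptor, had 4.59, 4.85, 5.27 and 2.27 CPM in TN1, TN2, TN3 and HC, and Prlr, the prolactin receptor, 3 to 5 UMIs. Igf1, a growth hormone target, had 10.8, 26.6 and 21.99 CPM in TN and 13.5 in HC. Under edgeR's quasi-likelihood test 0 of the 27 genes of these lists that were tested were called, with 2 (Ghr and Lhx4) at an unadjusted p under 0.05 and 0 called by DESeq2. Over all genes tested, 8.53% had an unadjusted p under 0.05 in that edgeR test and 0.966% were called by DESeq2. The median log2 fold change of the granule genes was -0.57 over 9 genes and that of the targets 0.47 over 5, beside 0.06 over all genes.

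The same barcode sequence in different areas did not carry the same Gh1 level in most pairs. Over the 585 sequences shared by TN1 and TN2 the correlation of Gh1 was -0.02, and over the other 5 pairs it ran from -0.02 to 0.16, the highest being TN2 with HC. In HC, the 8 spots at the shared sequences richest in TN2 Gh1 had 413 CPM from 20 UMIs, and the other shared spots 144. The 9 at those richest in TN3 had 402 CPM from 45 UMIs and the others 108. In the reverse direction, TN2 spots at the sequences richest in HC had 180 CPM and the others 315, and TN3 spots had 54.1 and 88.9. Spots at the same place of a slide can also share tissue position, and the part of either in these values was not tested. Spot positions were not analysed here, so whether hormone-rich spots lie side by side is not given.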

How the data were processed

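UMI counts per gene and spot were deposited by the authors without normalization. Space Ranger 1.2.0 (per the file headers) with STAR (per the submitters' processing notes) made them, for spots under tissue. The build was not given in the sources used here, nor was the annotation. Strand and reads shared with related genes were not checked. The capture area was read from the number after each barcode, in the order the series design gives. The 5 members and all lists were chosen with earlier results of these data known.

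Named genes were the members, the listed pituitary and organ genes, and the 5 genes most correlated with each of Gh1, Prl and Pomc, the members in at least 1% of spots of every area. UMIs were summed per area and tested with edgeR 4.0.16 (TMM, filterByExpr, adjusted p under 0.05), TN against HC. The study's methods tested over spots, which are not replicates. DESeq2 1.42.0 and the alternatives below were run beside it. Expected counts in a spot were taken in proportion to its total UMIs. Spots with several cells were not filtered. Regions came from SCTransform (sctransform 0.4.2, Seurat 5.3.0) on 3000 variable genes without pituitary genes, 30 principal components and K-means. The coefficient of variation, the observed over expected number of spots with a gene and the edgeR test were tried on simulated data. The other statistics were not. A count of 0 allows up to 3 UMIs, 0.0726 to 0.127 CPM in an area. Nothing in the sources says how many sections an area held. With 1 library per area, p-values measure the spread between areas.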

Additional observations from a re-analysis of the deposited data

How the results depend on the processing

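None of the members was called in TN against HC under any of the 10 alternatives. The number of genes called in all was 0 under most of them, 144 with DESeq2, and 0 to 2171 when 1 TN area was left out, the highest without TN1. The sign of some fold changes turned without passing the test. In the ganglion region alone the log2 fold change (TN minus HC) was 0.31 for Gh1 and 0.22 for Prl. When TN areas were left out 1 at a time it ran from -1.09 to 0.40 for Gh1, -2.37 to 0.025 for Prl, -0.37 to 0.72 for Pomc, -2.26 to -1.25 for Tshb and -0.78 to 0.37 for Lhb, with TN2 left out at the lower end and TN1 at the upper. The mean coefficient of variation over the 4 areas fell without the richest spot of each area (chosen after seeing the data) from 3.72 to 1.52 for Gh1, 2.51 to 1.71 for Prl, 3.29 to 1.44 for Tshb and 2.21 to 1.16 for Lhb. Those of Tshb and Lhb rest on few UMIs. The mean share of spots fell on thinning to 2000 UMIs from 57.1% to 18.1% for Gh1, 27.2% to 4.16% for Pomc and 2.91% to 0.471% for Tshb, and with 2 UMIs required to 9.21% for Pomc and 0.484% for Tshb, since both remove UMIs. The fold between the highest and lowest region was 7.34 for Gh1 and 7.46 for Prl in UMIs per spot (chosen after seeing the data). With areas left out 1 at a time, it was 9.78 to 12.2 for Gh1 and 11.1 to 12.8 for Prl. Log-normalised clusters gave no fold for Prl, since their blood and bone region of TN3 held none. With them the highest Gh1 and Prl of TN3 lay in an unnamed cluster. The highest region of TN2 was named connective tissue for both genes with log-normalised clusters and with 8 clusters. With 12 clusters it was peripheral myelin for Gh1 and an unnamed cluster for Prl. Blood and bone stayed highest for Gh1 in HC and TN1 under these clusterings. No paired analysis was possible because HC is 1 area without a replicate number. Few UMIs limit Tshb and Lhb in TN1 and TN3, where 13 to 26 were counted. TN1 was the shallowest area, but TN3 had a median depth near that of HC (14480 and 14616 UMIs per spot).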

Other observations

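Genes of distant organs, which the comparisons above did not use, were also counted. Of 11 such genes, 4 to 7 had a UMI in an area, with a summed level of 0.992 to 6.45 CPM. Across TN1, TN2, TN3 and HC, Ins2, insulin, had 0, 60, 168 and 0 UMIs, with at most 5 in a spot and in 136 of 1917 spots of TN3. Alb, albumin of the liver, had 86, 31, 2 and 15 UMIs in the same order, with at most 3 in a spot. TN1, the area with the least Gh1, thus had the most Alb. Both genes had fewer UMIs than Gh1 in every area, so the UMIs of their richest spots cannot be set against those of Gh1. The coefficient of variation of Ins2 was 3.64 in TN2 and 1.82 in TN3, beside 2.42 and 5.06 for Gh1. Without the richest spot these were 3.42 and 1.62, beside 2.11 and 1.04. Alb had 1.04 in TN1, and 0.708 without its richest spot, beside 5.98 and 1.57 for Gh1. Lhx4, a transcription factor of the early pituitary that other cells also express, had 36 UMIs in HC and at most 1 in each TN area (edgeR adjusted p = 0.556).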
